A study of Mus musculus with 12 samples.

Results

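Lower motor neurons of mice with 1 mutant copy of Tardbp were compared with those of wild type mice across all genes. Both groups are columns of a single table of read counts, and their members are the 4 heterozygote and 4 wild type libraries out of 12 in the series, taken by the genotype in their labels. The other 4 libraries came from homozygotes. They entered the estimate of the spread between libraries, and their levels are given beside those of the heterozygotes. The homozygotes were compared with the same wild type libraries, so the 2 mutant genotypes are not independent of each other.

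The wild type group (+/+), the heterozygotes (Q331K/+) and the homozygotes (Q331K/Q331K) were all C57BL/6 mice aged 5 months. The mutation was knocked into the mouse gene itself, so no transgene or outside promoter drives it, and every cell of the animal carries it. Motor neurons were cut by laser from lumbar spinal cord. Per the labels, RNA was taken up with a kit for captured cells, amplified by PCR with a low-input kit and turned into sequencing libraries by a transposase. The labels do not say how many cells a library held or whether each came from its own animal. P-values therefore measure only the spread between these libraries, which may be technical.

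TDP-43, the protein made from Tardbp, binds RNA in the nucleus, with a preference for stretches rich in UG, and acts in splicing, in the blocking of cryptic exons and in the control of its own transcript. In amyotrophic lateral sclerosis (ALS) it leaves the nucleus and clumps in the cytoplasm of motor neurons, the large cholinergic cells that drive muscle. Q331K, a change found in people with ALS, replaces a glutamine with a lysine in the glycine-rich tail of the protein, where many disease mutations lie.

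Tardbp itself read 62.3, 78.7, 76.1 and 77.8 CPM in wild type replicates 1 to 4. CPM is the usual unit of a gene's count scaled to a common library total. The heterozygote libraries read 72.2, 76.01, 78.2 and 65.7 CPM and the homozygote libraries 78.8, 75.04, 74.8 and 73.8 CPM. The heterozygote values lay within the wild type range. The mean of the wild type libraries was 73.7 ± 7.68 CPM and that of the heterozygotes 73.03 ± 5.48 CPM (SD, n = 4 each). The log2 difference was -0.01 with a 95% interval of -0.22 to 0.19, and an exact two-sided permutation test of 4 against 4 libraries gave p = 0.8286, where the smallest possible p is 0.0286. Counts per gene do not separate the mutant from the wild type allele, so the level does not check the genotype. Tardbp overlaps Masp2, which has 7.50% as many counts, and the kits keep no strand, so reads in the overlap cannot be told apart.

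Total counts ran from 62908120 to 83504446 in wild type and from 65322527 to 78842784 in heterozygotes. Genes with at least 1 count numbered 16633 to 17002 in wild type and 16312 to 16732 in heterozygotes. Neither measure, nor the share of the 10 most abundant genes, nor the share of mitochondrially encoded genes differed beyond the spread between libraries (exact two-sided permutation p from 0.286 to 0.943, adjusted over the 4 measures 0.914 to 0.943). The kits add no molecular identifiers, so counts are not independent molecules and counting intervals cover counting error only.

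The motor neuron label was checked against markers. Nefh, the heavy neurofilament chain, was at 5564, 4720.3, 3942 and 3532 CPM in wild type and at 6833, 4923, 4017 and 3815 CPM in heterozygotes. Chat, the enzyme that makes acetylcholine, was at 241, 129, 88.7 and 63.5 CPM in wild type and at 353, 117, 149 and 87.6 CPM in heterozygotes. Both were present in every library, so each held motor neuron RNA, but RNA of neighbouring cells was present too. Presence does not give the share of motor neuron RNA, which was not measured. The myelin gene Mbp was at 455, 499, 1445 and 649 CPM in wild type and at 421, 412, 502 and 430.4 CPM in heterozygotes, and the glycine transporter Slc6a5 of inhibitory interneurons was at 123, 130.3, 267 and 293 and 1.35, 219.8, 143 and 159.7 CPM. Chat was chosen for this check after its values were seen.

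Heterozygote replicate 1 stood apart from the other libraries. Its summed level of 11 markers of inhibitory interneurons was 14.3 CPM, against 568 to 845 CPM in the other heterozygotes and 425 to 906 CPM in wild type. Gad2, which makes GABA, had no count in it. Slc17a6, the vesicular glutamate transporter of excitatory neurons, was at 0.563, 235, 258 and 316 CPM in heterozygotes and at 235, 323, 282 and 236 CPM in wild type, and again replicate 1 alone was near 0. The same library had the most motor neuron marker RNA, 17886 CPM in sum over 19 markers, against 8630 to 10230 CPM in the other heterozygotes and 7769 to 12686 CPM in wild type. It was the highest of the 8 libraries for 3420 of 16338 genes and the lowest for 3479. The other 7 libraries were the highest for 1496 to 2206 genes and the lowest for 1364 to 2124. Homozygote replicate 1 likewise had no counts of Gad2 or Slc6a5. Counts over gene lists are therefore also given without that library, in the words "without replicate 1".

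**Figure D1:**
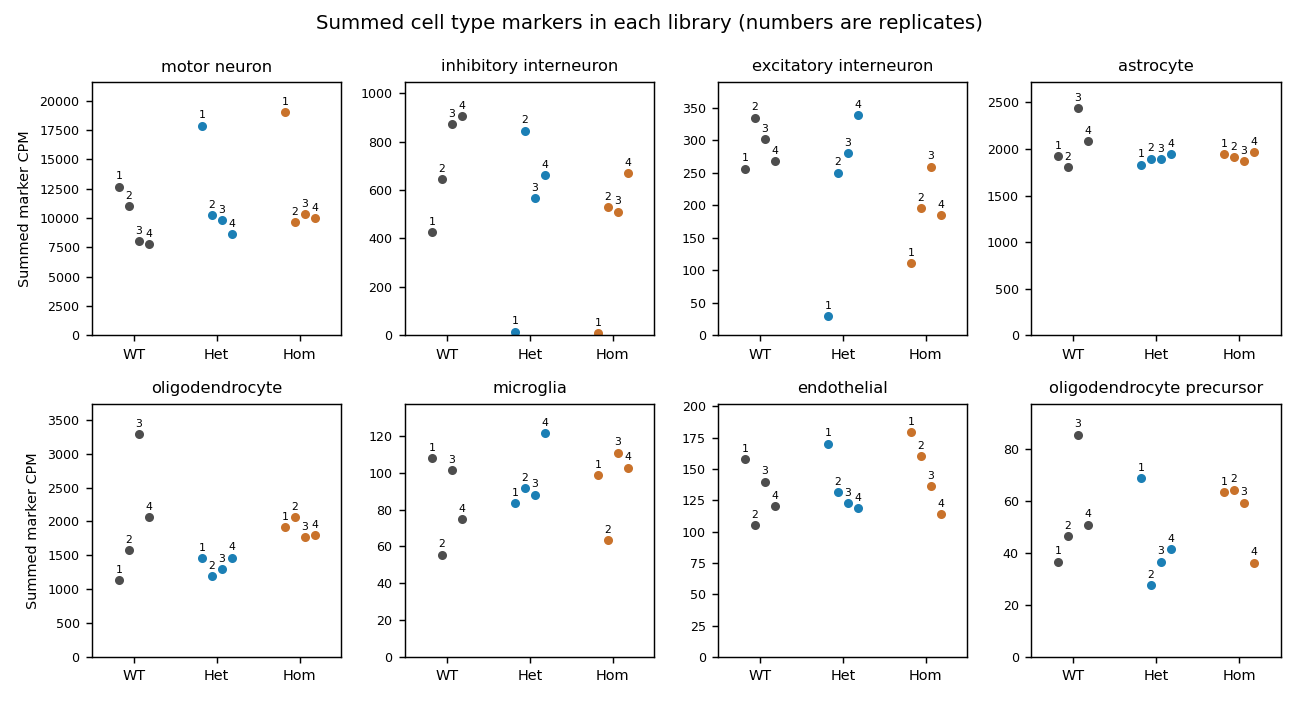
Summed CPM of the tested markers of 8 cell types (y axis of each panel) in wild type (WT), heterozygote (Het) and homozygote (Hom) libraries, with 1 point per library labelled by its replicate number. Heterozygote replicate 1 is lowest for both interneuron lists and above all wild type libraries for motor neuron markers, and wild type replicate 3 is highest for oligodendrocyte and astrocyte markers.

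No gene passed the test between the 2 groups. edgeR's quasi-likelihood test called 0 of 16338 genes (0%) at a Benjamini-Hochberg adjusted p below 0.05, and the smallest adjusted p was 0.59, for Gfpt2. An unadjusted p below 0.05 was found for 670 genes (4.1%), fewer than the 816.9 that a test with no true difference would give on average. Of these, 292 (1.79% of genes tested) were higher and 378 (2.31%) lower in heterozygotes. All 4 heterozygote values lay above all 4 wild type values for 241 genes (1.48%) and below them for 288 (1.76%). DESeq2 called 9 genes (0.0551%), 1 higher and 8 lower, and limma-voom with quality weights called 0, with 1066 at an unadjusted p below 0.05. Since no gene passed the edgeR test, the values that follow describe these libraries and no gene is said to have changed.

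How far a difference can be bounded depended on the level. The 95% interval of the difference lay within 2-fold either way for 9400 genes (57.5%). Among 2181 genes at a mean of 100 CPM or more over the 12 libraries it did so for 2085 (95.6%), and for 1896 (86.9%) it lay within 1.5-fold. The median interval reached 1.18-fold either way at 100 CPM or more and 9.2-fold under 1 CPM, where 0 of 2775 genes were bounded within 2-fold.

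**Figure D2:**
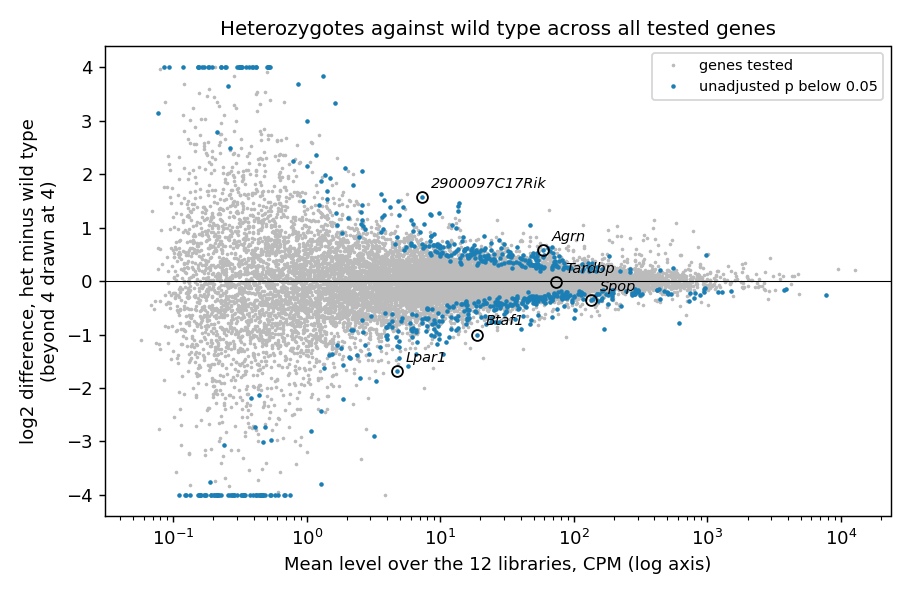
Log2 difference between heterozygotes and wild type (y axis, beyond 4 drawn at 4) against the mean level of each gene over the 12 libraries in CPM (log x axis), with 1 point per tested gene. Blue points have an unadjusted edgeR p below 0.05 (670 genes), and the scatter narrows from low to high levels.

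The 12 genes with the smallest p among those lower in heterozygotes held an enzyme of sugar metabolism, a ubiquitin ligase adaptor, regulators of transcription, a lipid receptor, a mitochondrial ion exchanger and a gene of myelinating cells. They were picked as the smallest p-values of 16338, so their differences are a description.

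Gfpt2, the enzyme that opens the hexosamine pathway by joining an amino group to fructose 6-phosphate, lies at chr11:49794178-49838613. Wild type libraries had 56 to 138 counts each (1.83, 0.896, 1.37 and 0.963 CPM), all 4 heterozygotes together had a single count, and homozygotes had 9 to 57 (0.174, 0.821, 0.207 and 0.118 CPM). The pooled ratio of wild type to heterozygotes was 369, with a 95% counting interval of 65.8 to 14617 that leaves out the spread between libraries. The edgeR log2 difference was -7.92, with a 95% interval of -10.7 to -5.18. All wild type libraries were above all heterozygotes, with the homozygotes between them. The adjusted p was 0.59 in edgeR, 2.63e-05 in DESeq2 and 0.307 in limma-voom. The isozyme Gfpt1 averaged 17.1 ± 3.84 CPM (wild type) and 15.5 ± 1.61 CPM (heterozygotes, SD, n = 4 each), a log2 difference of -0.14, and of the 6 other genes of the hexosamine and O-GlcNAc pathway that were tested none had an unadjusted edgeR p below 0.05.

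Cd14, the co-receptor for bacterial lipopolysaccharide on myeloid cells, was found with 25 to 77 counts per wild type library (0.516, 0.39997, 1.14 and 0.333 CPM) and with 0 in all 4 heterozygotes. Set against a floor of 3 counts for the whole group, the pooled counts were 56.7-fold lower in heterozygotes. That ratio leaves out the spread between libraries. The edgeR interval of the log2 difference, which draws on that spread, ran from -12.6 to -4.24. With a group at 0, the counts do not bound the far end of such an interval. Homozygotes had 0 to 48 counts (0, 0.691, 0.5904 and 0.171 CPM), so 1 of them was also at 0. Il20rb is a subunit of the receptors for interleukins 19, 20 and 24. It had 17 to 127 counts in wild type (1.31, 1.09, 1.89 and 0.202 CPM) and 0 in every heterozygote. Its pooled counts were 104-fold lower against the same floor, and its edgeR interval, with the same limit, ran from -14.7 to -3.94. Homozygote levels of Il20rb were 1.02, 0.302, 0 and 0 CPM. Nptx2, a secreted protein of synapses, had 28 to 60 counts in wild type, 3 counts over all heterozygotes and 0 to 41 in homozygotes. Its pooled ratio was 63.7, with a counting interval of 21.5 to 311.6 that leaves out the spread between libraries. The log2 difference of Nptx2 was -5.75 (SE 2.05, unadjusted edgeR p 0.0154), and the gene was named after its values were seen. All 4 genes were under 2 CPM in every library, where intervals are widest.

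Spop, the adaptor that brings substrates to the cullin 3 ubiquitin ligase, lies at chr11:95414080-95493406. It read 172, 164, 164 and 157 CPM in wild type, 129, 137, 123 and 126 CPM in the heterozygotes and 109.7, 115, 100.2 and 106 CPM in homozygotes. The 3 groups did not overlap, with heterozygotes between the others. Its log2 difference in heterozygotes was -0.35 (SE 0.07), or 1.28-fold lower. The unadjusted edgeR p was 3.81e-04 and the adjusted p 0.0129 in DESeq2, on 8235 to 13220 counts per library. Its SE was the smallest of the 12.

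Genes of the cullin 3 ligase had no common direction. Among the cullin 3 ligase, its adaptors and the Nedd8 cycle, 11 genes were tested. Of these, 8 were higher and 3 lower (5 and 6 without replicate 1). Spop alone had an unadjusted p below 0.05 (9.09% of the list, against 4.1% of all genes tested). Cul3 averaged 80.5 ± 6.68 CPM (wild type) and 84.4 ± 19.99 CPM (heterozygotes, SD, n = 4 each), and the paralog Spopl averaged 12.8 ± 1.74 and 10.5 ± 1.95 CPM. Of 9 tested genes whose proteins are known substrates of SPOP, 3 were higher and 6 lower, with the same counts without replicate 1. Their median log2 difference was -0.17, and -0.22 without replicate 1 and -0.04 without heterozygote replicate 3. H2afy, a histone variant among them, read 39.1, 44.97, 44.8 and 44.4 CPM in wild type and 26.8, 34.98, 30.99 and 34.5 CPM in heterozygotes. The groups did not overlap, and the log2 difference was -0.45 (SE 0.19, unadjusted edgeR p 0.0362). H2afy was the 1 substrate below 0.05 (11.1%, against 4.1% of all genes tested). It was also the 1 without overlap, where 1.76% of all genes were lower without overlap. RNA counts do not show the protein levels of these substrates.

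Tshz2, a zinc finger transcription factor at chr2:169633013-170071816, read 29.3, 31.3, 30.9 and 25.5 CPM in wild type and 13.7, 20.2, 15.7 and 17.4 CPM in heterozygotes. Its log2 difference was -0.80 (SE 0.16), with no overlap, and homozygotes read 17.3, 19.1, 18.97 and 24.4 CPM. Btaf1, which takes the TATA-binding protein off DNA, read 23.8, 21.4, 25.1 and 27.98 CPM in wild type and 18.6, 10.5, 8.95 and 11.2 CPM in heterozygotes. Replicate 1 was the highest heterozygote and still below the lowest wild type library. The log2 difference of Btaf1 was -0.999 (SE 0.21), and the homozygotes, at 18.999, 20.9, 19.8 and 17.5 CPM, were all below wild type and above heterozygote replicates 2 to 4. Samd4, an RNA-binding repressor of translation, read 17.1, 19.7, 16.6 and 16.4 CPM against 9.295, 11.4, 8.71 and 12.6 CPM, a log2 difference of -0.73 (SE 0.16). Its homozygote values were 11.7, 12.6, 12.7 and 12.1 CPM. DESeq2 gave adjusted p-values of 0.0129 for Tshz2 and 0.0244 for Btaf1 and Samd4, and the adjusted edgeR p was 0.999 for each.

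Lpar1, a receptor for lysophosphatidic acid, read 4.25, 6.86, 12.7 and 7.48 CPM in wild type and 1.73, 2.66, 2.49 and 2.86 CPM in heterozygotes. No heterozygote reached the lowest wild type library, and the wild type values themselves spread widely, with replicate 3 the highest. The log2 difference was -1.68 (SE 0.36, DESeq2 adjusted p 0.0244), and homozygotes read 3.21, 5.14, 4.39 and 2.74 CPM. Lpar6 and Enpp2, which makes lysophosphatidic acid, also passed the filter on low counts, while Lpar2, Lpar3, Lpar4 and Lpar5 did not. Plpp1, Plpp2 and Plpp3 of the pathway were not found by symbol and were not examined. Enpp2 averaged 46.2 ± 15.2 CPM (wild type) and 46.02 ± 20.4 CPM (heterozygotes, SD, n = 4 each).

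Bcas1, a protein of oligodendrocytes that are forming myelin, read 37.7, 43.1, 84.0003 and 50.5 CPM in wild type and 30.2, 30.3, 28.1 and 27.1 CPM in heterozygotes, with no overlap. Wild type replicate 3 was the highest, as it was for oligodendrocyte markers in sum, and without it the log2 difference of -0.90 became -0.59. Timp4, an inhibitor of metalloproteinases, read 11.9, 8.11, 18.5 and 11.8 CPM against 5.65, 6.51, 8.08 and 4.55 CPM. It lies inside the synapsin gene Syn2, whose counts are 2048% of its own, so its value is uncertain.

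The other genes described were more abundant. Letm1, an ion exchanger of the inner mitochondrial membrane, read 115, 118, 115 and 113 CPM in wild type and 85.97, 95.97, 77.2 and 93.4 CPM in heterozygotes. Its groups did not overlap, with a log2 difference of -0.39 (SE 0.10) and homozygotes at 75.995, 101, 90.7 and 85.3 CPM. 8430419L09Rik read 198, 214, 241 and 238 CPM against 173, 179.9, 167 and 186 CPM, a log2 difference of -0.34 (SE 0.08).

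**Figure D3:**
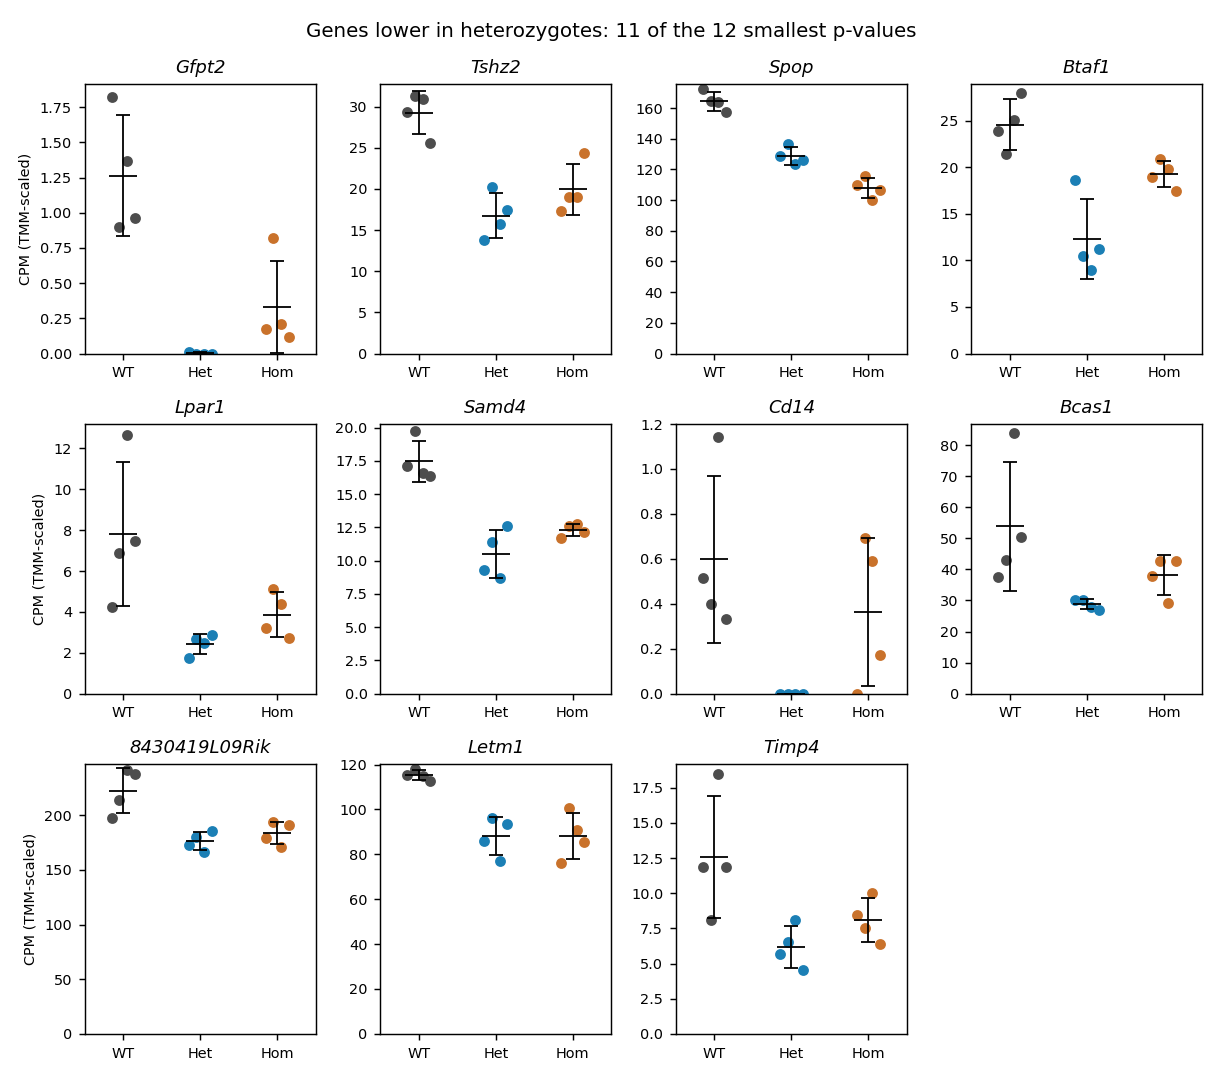
CPM (y axis, from 0) of 11 of the 12 genes with the smallest p among those lower in heterozygotes, in wild type (WT), heterozygote (Het) and homozygote (Hom) libraries, with 1 point per library and the mean with its SD. In all 11 panels the heterozygote points lie below the wild type points, and for Spop the homozygotes lie lower still.

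The 12 genes with the smallest p among those higher in heterozygotes held an organiser of the neuromuscular junction, a steroid receptor, part of the secretory pathway and several genes under 10 CPM in wild type. 2900097C17Rik, at chr2:156392491-156392829, read 2.54, 5.26, 2.72 and 2.01 CPM in wild type, 10.4, 7.52, 11.6 and 7.95 CPM in the heterozygotes and 7.904, 7.83, 10.1 and 11.1 CPM in homozygotes. Every mutant library was above every wild type library. The log2 difference in heterozygotes was 1.58 (SE 0.31), and this was the only higher gene that DESeq2 called, at an adjusted p of 0.0109.

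Agrn, agrin, which motor nerve endings secrete to cluster acetylcholine receptors on muscle, lies at chr4:156165290-156197488. It read 49.3, 49.1, 40.5 and 45.8 CPM in wild type and 74.6, 60.4, 74.5 and 65.9 CPM in heterozygotes. The groups did not overlap, and the log2 difference was 0.58 (SE 0.15), or 1.49-fold. Homozygotes read 76.5, 62.5, 60.2 and 45.6 CPM, with 1 of them inside the wild type range. Heterozygote replicate 1, the library richest in motor neuron markers, had the highest Agrn level of the 4, and replicate 3 matched it. Whether Agrn moves with motor neuron content was not tested.

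Nr3c2, the mineralocorticoid receptor, read 29.3, 27.5, 22.1 and 30.2 CPM in wild type and 43.9, 36.9, 34.5 and 37.7 CPM in heterozygotes, without overlap, a log2 difference of 0.49 (SE 0.14). Ssr4, a subunit of the complex beside the channel through which secreted proteins enter the endoplasmic reticulum, read 106, 115, 123 and 114 CPM against 131, 141, 133 and 149.9 CPM. All heterozygotes were higher, by 0.27 on the log2 scale (SE 0.08). Its partner Ssr2, named after its values were seen, read 129, 123, 112 and 117 CPM against 153, 136, 136 and 144 CPM, also without overlap (log2 difference 0.24, SE 0.08).

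Aox1, an aldehyde oxidase, read 5.77, 5.73, 5.76 and 7.04 CPM in wild type, 25.7, 9.81, 16.02 and 9.12 CPM in the heterozygotes and 29.2, 16.7, 20.2 and 12.6 CPM in homozygotes. Every mutant library was higher than every wild type library, and replicate 1 was the highest in both mutant groups. The log2 difference in heterozygotes was 1.32 (SE 0.34), and 0.94 without heterozygote replicate 1. Echdc2, an enoyl-CoA hydratase-like enzyme, read 5.66, 10.4, 9.52 and 5.43 CPM against 18.96, 12.4, 18.5 and 14.3 CPM, a log2 difference of 1.05 (SE 0.29). Cwf19l2, a protein linked to the spliceosome, read 9.05, 7.52, 7.798 and 7.46 CPM against 14.3, 14.2, 10.9 and 10.7 CPM, a log2 difference of 0.65 (SE 0.18).

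Zfp182, a zinc finger protein on the X chromosome, read 1.26, 1.504, 1.87 and 2.805 CPM in wild type and 4.11, 3.33, 6.16 and 7.69 CPM in heterozygotes, a log2 difference of 1.52 (SE 0.36). 5730577I03Rik read 0.503, 0.512, 0.475 and 0.131 CPM against 1.89, 1.82, 3.27 and 1.39 CPM, a log2 difference of 2.36 (SE 0.58). Neither gene overlapped between the groups. A830039N20Rik read 18.4, 12.96, 17.97 and 14.9 CPM against 26.2, 23.1, 23.4 and 23.3 CPM, but it lies inside the potassium channel gene Kcnma1, which has more counts, and its value is uncertain. Slc47a2, a transporter that moves organic cations out of cells, had 0 counts in all wild type libraries and 0 to 108 in heterozygotes. Its pooled counts were 48.4-fold higher against the floor of 3 counts, a ratio that leaves out the spread between libraries. The edgeR interval of its log2 difference ran from 3.50 to 12.9, and with wild type at 0 the counts do not bound its upper end. Its heterozygote levels were 1.52, 0.341, 0.165 and 0 CPM, so replicate 4 was at 0 as well and most of the counts came from replicate 1.

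**Figure D4:**
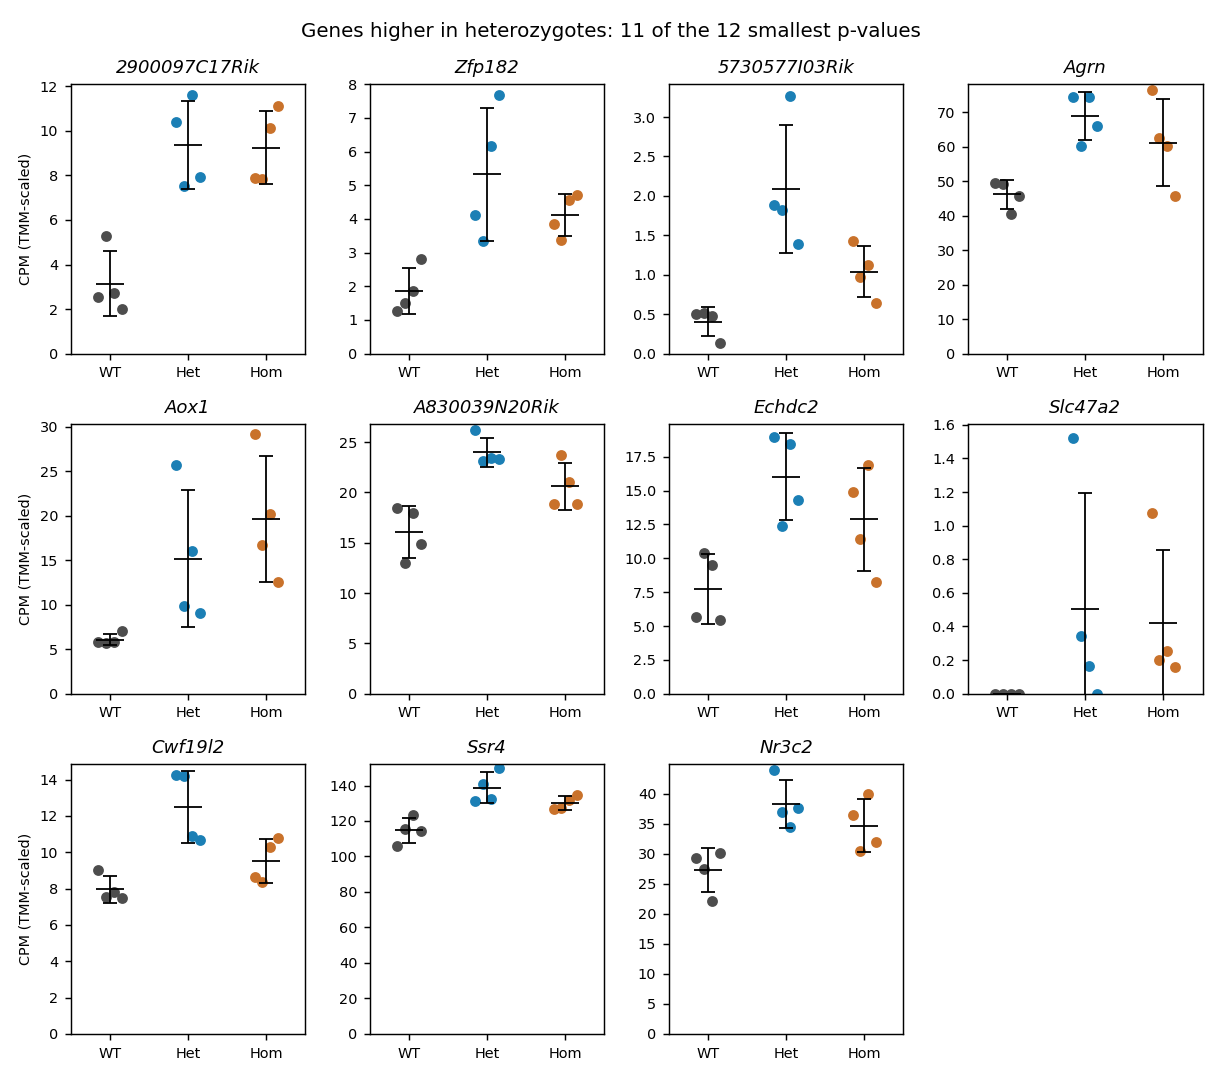
CPM (y axis, from 0) of 11 of the 12 genes with the smallest p among those higher in heterozygotes, in wild type (WT), heterozygote (Het) and homozygote (Hom) libraries, with 1 point per library and the mean with its SD. The heterozygote points lie above the wild type points in every panel apart from Slc47a2, where heterozygote replicate 4 is at 0 like wild type.

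Synaptic genes were mostly lower in heterozygotes by a small amount. Of 39 tested genes of synaptic vesicles and release, 33 were lower and 6 higher, with a median log2 difference of -0.11 against -0.00 over all genes tested, where 8126 were higher and 8212 lower. Without replicate 1 the median was -0.10, with 29 lower and 10 higher. An unadjusted edgeR p below 0.05 was found for 3, all lower (7.69%, against 4.1% of all genes tested), and the groups did not overlap for 4, all lower, where 1.76% of all genes were lower without overlap. Nsf, the ATPase that takes SNARE complexes apart after fusion, read 1346, 1375, 1307 and 1348 CPM in wild type and 1254, 1125, 1202 and 1102 CPM in heterozygotes. All heterozygotes were below all wild type libraries, at a log2 difference of -0.20 (SE 0.07). Snap25, a SNARE protein, read 7031, 9294, 9058 and 9449 CPM against 6169, 8103, 7022 and 7946 CPM, with overlap because wild type replicate 1 was low. Syp, the vesicle protein synaptophysin, read 1332, 1306, 1331 and 1363 CPM against 1181, 1287, 1214 and 1244 CPM, without overlap but at a difference of only -0.11 (SE 0.05, unadjusted p 0.0563).

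These synaptic transcripts are not specific to motor neurons, and interneuron RNA was also lower in sum in heterozygote replicate 1. The 11 inhibitory interneuron markers were all lower in heterozygotes (median -0.64, and -0.33 without replicate 1, where 8 were lower and 3 higher), none with an unadjusted p below 0.05. In bulk libraries, fewer cells of a type and less RNA per cell cannot be told apart. The part of interneuron RNA in the synaptic values was not tested.

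Few receptors and channels had an unadjusted edgeR p below 0.05, a p found for 4.1% of all genes tested. The shares were 3.85% of glutamate receptors and scaffolds, 5.88% of glycine and GABA receptors and 0% of potassium channels. They were 11.1% of sodium channel subunits and 13.3% of calcium channel subunits, in lists of 9 and 15 tested genes. Of 26 tested glutamate receptors and scaffolds, 9 were higher and 17 lower (median -0.13, and -0.03 without replicate 1 with the same counts). Gria1, an AMPA receptor subunit, read 11.3, 17.1, 28.3 and 16.02 CPM against 5.24, 11.95, 10.1 and 12.2 CPM and was the 1 member at an unadjusted p below 0.05 (log2 difference -0.88, SE 0.32). Its groups overlapped at wild type replicate 1, and the difference was -0.58 without wild type replicate 3. Of 17 receptors for glycine and GABA, 5 were higher and 12 lower (median -0.14, and -0.13 without replicate 1, with 3 and 14). The median was -0.26 without wild type replicate 2. Gabra4, a GABA-A receptor subunit near 1 CPM, read 1.098, 0.864, 1.95 and 2.38 CPM against 0.338, 0.442, 0.105 and 0.0135 CPM, without overlap. Of its homozygote values of 1.07, 2.89, 1.71 and 0.0658 CPM, 3 lay above all heterozygotes and 1 within their range.

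Scn2a1, a voltage-gated sodium channel, read 19.2, 11.4, 16.6 and 16.6 CPM in wild type, 19.8, 20.3, 25.3 and 24.6 CPM in the heterozygotes and 24.3, 29.8, 34.6 and 29.4 CPM in homozygotes. Every heterozygote was above every wild type library, though wild type replicate 1 was close to heterozygote replicate 1, and the log2 difference was 0.50 (SE 0.18, unadjusted edgeR p 0.01604). The other 8 sodium channel subunits had p-values of 0.05 or more, and the list as a whole held 3 higher and 6 lower (4 and 5 without replicate 1). Of 15 calcium channel subunits 8 were higher and 7 lower, and without replicate 1 it was 7 and 8. Cacna1g, a low-voltage-activated channel, read 8.77, 10.5, 5.897 and 7.14 CPM against 30.7, 13.3, 10.7 and 9.43 CPM, with the highest value in heterozygote replicate 1. Its log2 difference of 0.99 became 0.47 without that library. Cacnb2, an auxiliary subunit, read 48.5, 33.9, 38.6 and 54.6 CPM against 32.6, 27.9, 34.6 and 27.8 CPM, a log2 difference of -0.52 (SE 0.16) with overlap. None of 31 potassium channels had an unadjusted p below 0.05, with 16 higher and 15 lower (14 and 17 without replicate 1) and a median of 0.00.

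Neurofilament and motor neuron markers were high in heterozygote replicate 1. Of 19 motor neuron markers 16 were higher and 3 lower, at a median log2 difference of 0.43, none with an unadjusted p below 0.05. Without heterozygote replicate 1 the median was -0.01, with 9 higher and 10 lower. Chodl, a marker of fast motor neurons named after its values were seen, read 480.4, 527, 191 and 219 CPM against 1489, 211, 516 and 205 CPM, and its log2 difference was 0.77 with all libraries and -0.19 without that replicate. Nefl, Nefm and Nefh, the light, medium and heavy chains, had log2 differences of 0.22, 0.20 and 0.14, which became -0.09, -0.16 and -0.06 without it. Prph, peripherin, read 1129, 529.7, 375 and 354 CPM against 1728, 643, 785 and 553 CPM, with wild type replicate 1 and heterozygote replicate 1 the highest of their groups. Its log2 difference of 0.64 was 1.15 without the former and 0.15 without the latter. Ina, alpha-internexin, was at 107, 787, 639 and 727 CPM in heterozygotes, lowest in replicate 1, against 584, 740.2, 909 and 881 CPM in wild type.

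Counts for genes of energy metabolism depended on the libraries used. Of 76 nuclear genes for the respiratory chain 47 were higher and 29 lower, at a median of 0.03. Without replicate 1 the median was 0.09, with 58 higher and 18 lower, and without wild type replicate 1 it was -0.05. The 4 with an unadjusted p below 0.05 (5.26%, near the 4.1% of all genes tested) were all lower. Sdha, the catalytic subunit of complex II, read 589.8, 588, 599 and 599 CPM against 465, 525, 479 and 547 CPM, with no overlap and a log2 difference of -0.24 (SE 0.10). Atp5a1, the alpha subunit of ATP synthase, read 1639, 1669, 1634 and 1696 CPM against 1292, 1540.3, 1423 and 1594 CPM, also without overlap (-0.18, SE 0.08). Uqcrc1 of complex III and Ndufa9 of complex I had log2 differences of -0.15 and -0.18. Of 16 glycolysis enzymes 13 were lower and 3 higher, at a median of -0.10, and without replicate 1 it was 14 and 2, at -0.11. Pkm, pyruvate kinase, read 4393, 3943, 4055 and 4342 CPM against 3587, 3953, 3706 and 3825 CPM, a log2 difference of -0.15 (SE 0.06).

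Transcripts of mitochondrial DNA varied widely within both groups. Of 13, 12 were higher and 1 lower (11 and 2 without replicate 1), at a median of 0.20 that became 0.10 without wild type replicate 1, none with an unadjusted p below 0.05. mt-Co3 read 5.28, 968, 373 and 1427 CPM in wild type and 2271, 392, 2583 and 59.2 CPM in heterozygotes, with very low and very high libraries in both groups. mt-Co1, which lies on the same DNA, read 1828, 2024, 2274 and 2351 CPM and 2427, 1889, 2747 and 1692 CPM, a far smaller spread. mt-Atp6, next to mt-Co3, was low and high in the same libraries, at 3.96, 706, 194 and 1024 CPM and 1717, 264, 2059 and 42.4 CPM. These 2 genes were named after their values were seen.

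Ribosomal protein genes were mostly higher by a small amount. Of 78 tested genes 68 were higher and 10 lower, at a median of 0.08, and 0.09 without replicate 1, where 65 were higher and 13 lower. None had an unadjusted p below 0.05, and 4 of the 78 had groups that did not overlap, all higher, where 1.48% of all genes were higher without overlap. Rpl12 read 91.5, 91.6, 92.3 and 92.1 CPM in wild type and 134, 97.6, 96.9 and 121 CPM in heterozygotes, and the wild type values lay within 1 CPM of each other. Without wild type replicate 1 the median of the list was 0.01.

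Protein quality lists had medians near 0. The unfolded protein response list held 7 higher and 17 lower of 24 genes (median -0.04), with the same counts without replicate 1. The proteasome list held 20 higher and 11 lower of 31 (median 0.03), and 16 and 15 without replicate 1. Autophagy and lysosome genes were 11 higher and 11 lower of 22 (median -0.01), and 8 and 14 without replicate 1. These lists held 1 gene in all with an unadjusted p below 0.05, a p found for 4.1% of all genes tested. That was Psmc1, an ATPase of the proteasome cap, at 439, 461, 469 and 449 CPM against 416, 403, 399 and 415 CPM. Its groups did not overlap, and the log2 difference was -0.15 (SE 0.06). Heat shock genes were 12 higher and 9 lower of 21, and 6 and 15 without replicate 1. Hspa4l, an Hsp110 chaperone, was the 1 of them below 0.05 (4.76%, near the 4.1% of all genes tested). Its levels were 291, 342, 323 and 327 CPM against 289.5, 283, 288 and 271 CPM. The p53 and apoptosis list (18 genes, 8 higher and 10 lower, and 7 and 11 without replicate 1) had none. The nerve injury list had none either, with 6 higher and 7 lower of 13 genes at a median of -0.22. Without replicate 1 it was 1 and 12, at -0.27, and without wild type replicate 1 the median was 0.65. Atf3, which rises in injured motor neurons, was at 1.08, 0, 0.654 and 0.357 CPM in wild type and 1.83, 0, 0 and 0.727 CPM in heterozygotes, a low level in both.

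Immediate early genes held 2 members below an unadjusted p of 0.05 among 14 (14.3%, against 4.1% of all genes tested). Egr1, a transcription factor induced by neuronal activity, read 9.41, 15.95, 18.4 and 14.7 CPM in wild type and 2.08, 3.899, 8.26 and 8.53 CPM in heterozygotes, without overlap, at a log2 difference of -1.36 (SE 0.45). Dusp1, a phosphatase of MAP kinases, read 49.9, 35.2, 36.3 and 35.2 CPM against 27.7, 35.6, 31.6 and 28.8 CPM, a difference of -0.34 with overlap, and of -0.20 without wild type replicate 1. The list had 5 higher and 9 lower in all, with and without replicate 1, and its median of -0.16 was -0.03 without wild type replicate 1.

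Genes tied to ALS and to TDP-43 showed no difference past an unadjusted p of 0.05. Of 24 RNA-binding proteins linked to ALS or stress granules 13 were higher and 11 lower (median 0.02), and without replicate 1 it was 11 and 13. Matr3, a nuclear matrix protein, averaged 187 ± 8.06 CPM (wild type) and 183 ± 33.2 CPM (heterozygotes, SD, n = 4 each). Of 22 other ALS genes 13 were higher and 9 lower, and without replicate 1 it was 9 and 13. Pfn1, which feeds actin monomers to growing filaments, was the 1 without overlap, at 219, 202, 202 and 191 CPM against 294, 219, 224 and 224 CPM, and its log2 difference of 0.24 was 0.13 without heterozygote replicate 1. Sod1 had a log2 difference of 0.10 with an interval of -0.12 to 0.32.

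Transcripts known to change when TDP-43 is lost were 8 higher and 9 lower over 17 entries, at a median of -0.02, and 9 and 8 without replicate 1, at 0.05. Sort1, whose exon choice depends on TDP-43, was at 69.95, 88.99, 81.4 and 101 CPM in wild type and 90.2, 71.9, 89.4 and 80.4 CPM in heterozygotes. Its log2 difference was -0.04, with an interval of -0.33 to 0.24. Eif4h read 357, 377, 382 and 365 CPM against 354, 342, 329.6 and 348 CPM and was the 1 member without overlap, at -0.11 on the log2 scale. Stmn2, a regulator of microtubules, read 1871, 1668, 1345 and 1315 CPM against 2930.2, 1586, 1662 and 1573 CPM, highest in heterozygote replicate 1. Counts per gene do not show which exons were used, and whether each listed transcript depends on TDP-43 in mouse was not tested. Matr3, Sod1, Sort1 and Stmn2 were named after their values were seen.

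Splicing factors split 18 higher and 27 lower over 45 genes (median -0.05), and 20 and 25 without replicate 1. Celf1, which binds GU-rich RNA, read 29.8, 29.8, 33.3 and 31.97 CPM in wild type and 17.8, 18.1, 22.8 and 28.7 CPM in heterozygotes. All heterozygotes were lower, by a log2 difference of -0.52 (SE 0.19, unadjusted edgeR p 0.0172), and replicate 4 came within 2 CPM of wild type. Srsf2, a serine and arginine rich splicing factor, read 119.6, 126, 109.6 and 122 CPM against 141, 138, 139.5 and 124 CPM, a difference of 0.19 with overlap. Of 28 transport motor genes 17 were higher and 11 lower (9 and 19 without replicate 1), with Dctn3 of dynactin at 0.20 and Dync1li2 of dynein at -0.18.

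Markers of glia and vessels varied widely within the groups. Of 19 oligodendrocyte markers 18 were lower and 1 higher, with and without replicate 1, at a median of -0.47. An unadjusted p below 0.05 was found for 3, Mbp and Mobp among them (15.8%, against 4.1% of all genes tested). Mobp read 102, 139, 465 and 199 CPM in wild type and 141, 109, 130.2 and 107 CPM in heterozygotes, so the groups overlapped and wild type replicate 3 was the highest. Without that library the log2 difference of -0.89 for Mobp was -0.26, and that of -0.79 for Mbp was -0.27. The median of the list was -0.26 without wild type replicate 3 and -0.25 without wild type replicate 4. Of 16 astrocyte markers 13 were lower and 3 higher (15 and 1 without replicate 1), at a median of -0.44, but -0.04 without wild type replicate 3. Agt, angiotensinogen, read 9.498, 9.81, 27.3 and 14.6 CPM against 4.97, 4.67, 9.46 and 10.4 CPM, and Aldoc, the most abundant of the list, read 964, 909, 1281 and 1147 CPM against 467, 930.3, 896 and 979 CPM, lowest in heterozygote replicate 1. Of 17 microglia markers 14 were higher and 3 lower, at a median of 0.22 (13 and 4 without replicate 1, at 0.28). The median was 0.01 without heterozygote replicate 4, 0.02 and 0.10 without wild type replicates 2 and 4, and 0.49 and 0.43 without wild type replicates 1 and 3. Csf1r, the receptor that microglia need to survive, read 13.96, 12.2, 13.5 and 9.26 CPM against 10.5, 11.04, 9.65 and 18.3 CPM, with full overlap. Of 14 endothelial markers 12 were lower and 2 higher (11 and 3 without replicate 1), none with an unadjusted p below 0.05. Their median was -0.81, and -0.40 without wild type replicate 3. In sum these markers overlapped, at 105 to 158 CPM in wild type and 119 to 170 CPM in heterozygotes.

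The direction of the cholesterol list rested on 1 library. Of 22 genes of cholesterol synthesis and uptake 19 were higher and 3 lower, at a median of 0.14. Without heterozygote replicate 1 the median was -0.07, with 8 higher and 14 lower.

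**Figure D5:**
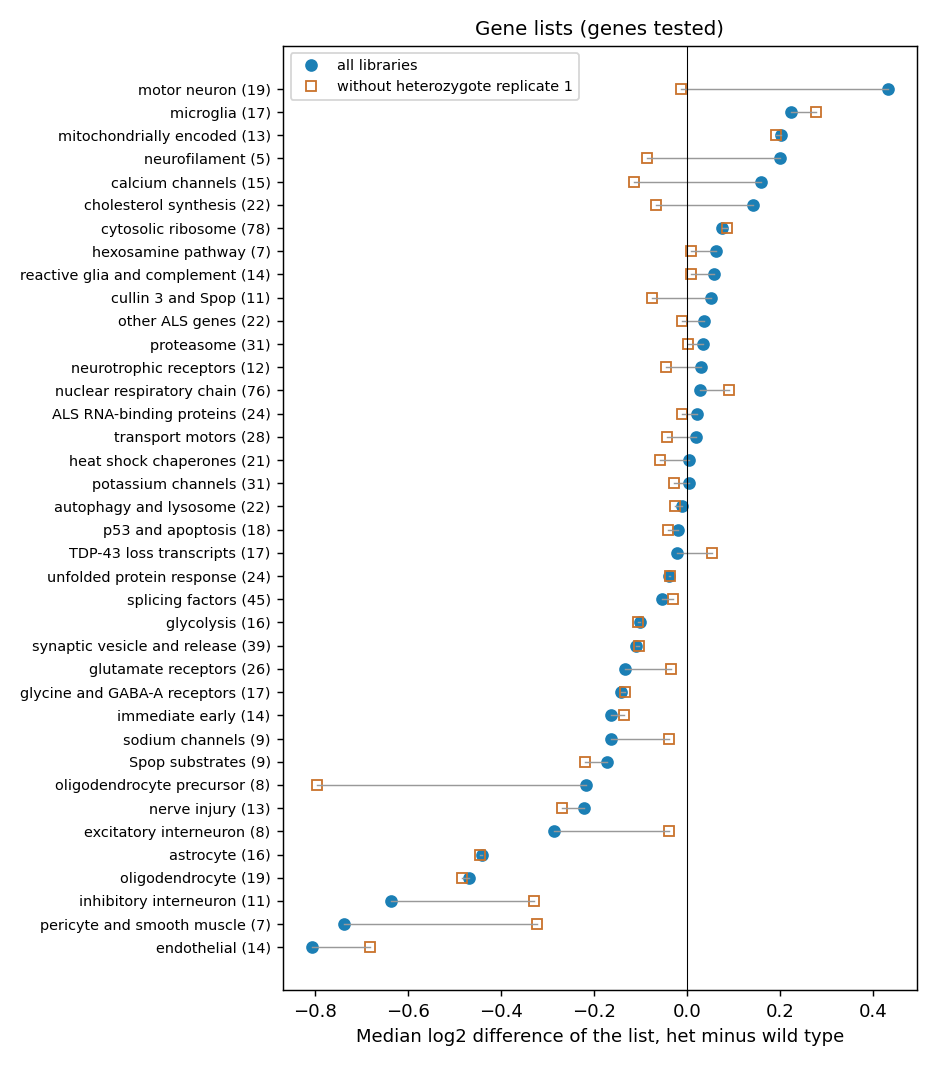
Median log2 difference between heterozygotes and wild type (x axis) of each gene list with 5 or more tested genes (y axis, number tested in brackets), with all libraries (filled circles) and without heterozygote replicate 1 (open squares). The motor neuron, neurofilament, calcium channel and cholesterol medians are among those that cross 0 without that library. Medians nearer 0 with all libraries cross it too, in the cullin 3, TDP-43 loss, potassium channel and neurotrophic receptor lists. So do those of the heat shock, transport motor and both ALS lists. The synaptic, glycolysis and ribosome medians change little.

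Among abundant genes, those with a small p were mostly lower, while the class as a whole was not. The median log2 difference over 2181 genes at 100 CPM or more was 0.01, with quartiles of -0.08 and 0.0955. An unadjusted edgeR p below 0.05 was found for 85 of them (3.90%, near the 4.1% of all genes tested), 67 lower and 18 higher, whereas groups without overlap were more even, with 52 lower and 44 higher. Besides Spop and Letm1, the lower ones held Ndrg4, a cytoplasmic protein abundant in neurons, at 4316, 4108, 3925 and 4142 CPM against 3323, 3924, 3734 and 3638 CPM. They also held Calm3, a calmodulin gene, at 794, 884, 802 and 809 CPM against 695, 763, 705 and 648 CPM. Cyfip2, part of the WAVE complex that steers actin, read 367, 344, 347 and 331.03 CPM against 299.6, 294, 278 and 299.8 CPM. All 3 were without overlap, at log2 differences of -0.17, -0.23 and -0.25, and were named after their values were seen. Lower genes outnumbered higher ones under each of 20 alternative settings, which reuse the same libraries and are no independent support. This count was not planned for the alternatives, and the split varied. It was 33 lower and 24 higher without heterozygote replicate 3, 73 and 53 without wild type replicate 1, 35 and 15 without wild type replicate 2, 83 and 50 without homozygote replicate 1, and 114 and 40 in limma-voom.

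Genes near Tardbp, the site of the knock-in, were split evenly. Of 91 tested genes within 5 Mb on chromosome 4, 47 were higher and 44 lower (39 and 52 without replicate 1). Their median was 0.02, and 2 had an unadjusted p below 0.05 (2.2%, against 4.1% of all genes tested). Mfn2, which fuses outer mitochondrial membranes, read 205, 205, 169 and 206 CPM against 178, 156, 176 and 151 CPM, a log2 difference of -0.25 (SE 0.09) with overlap. Gpr157, a receptor near 1 CPM in wild type, read 0.661, 0.496, 1.95 and 0.5705 CPM against 2.08, 3.36, 2.23 and 1.27 CPM.

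Long genes and genes with TG repeats were also counted, since TDP-43 is known to bind long introns and UG-rich RNA. Of 2194 tested genes spanning 100 kb or more 1033 were higher and 1161 lower (957 and 1237 without replicate 1), at a median of -0.02. Of all of these, 45 higher and 57 lower had an unadjusted p below 0.05 (4.65%, against 4.1% of all genes tested). The run TGTGTGTGTGTG was searched on the sense strand of the longest transcript of GENCODE release M21 (build GRCm38) of each gene, which was found by symbol for 14642 of 16338 genes. It was in 1235 of these (8.43%), in 36 of 348 genes lower at an unadjusted p below 0.05 (10.3%) and in 22 of 253 higher (8.7%). Median transcript lengths in the same order were 3184, 3487 and 3105 bases. Spop and Timp4 were among the leading genes that held the run. Introns were not searched, and a match is no site of binding.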

How the data were processed

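The deposited table holds raw counts per gene for 12 libraries, which the authors made from reads handled with Trim Galore 0.4.3 and HISAT2 2.0.5 on build GRCm38, per the submitters' processing notes. How reads were counted, on which annotation and with which strand setting is not given in the sources used here. It has 25965 entries, 20011 with at least 1 count, and 124 of them share a symbol with another and were kept apart. Coordinates are those of the table.

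Counts were filtered with filterByExpr (16338 genes left), scaled by TMM (factors 0.94 to 1.03) and fitted with edgeR 4.0.16 in R 4.3.3 by its quasi-likelihood test over all 12 libraries, with genotype as the only term and heterozygote minus wild type as the contrast. Log2 differences come from this fit, with Benjamini-Hochberg adjustment over all genes, a threshold of 0.05 and 95% intervals. The biological coefficient of variation was 0.569. A fold against a group at 0 uses a floor of 3 counts over the group and leaves out the spread between libraries. DESeq2 1.42.0 and limma-voom with quality weights (limma 3.58.1) were alternatives, as were other scaling, other filters, the 8 compared libraries alone, the replicate number as a block, and leaving out each library. The fits were first tested on simulated data. Within a group, pairs of libraries had a chi-square of at least 61 per degree of freedom, far above counting noise, so no 2 columns hold the same counts. Repeat captures from 1 animal cannot be told apart by this.

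Members, the 43 gene lists and the tests were chosen with earlier results of these data known, and lists are described by counts and medians without a test. The genes named were Tardbp, the 12 smallest p-values in each direction, genes called by any tool, genes at 0 in a group and at 20 counts or more in each library of the other, up to 4 members of a list with the smallest p, and the 3 markers of each cell type that were highest in wild type. Cul3, Nefm and Atf3, and the genes said in the text to be so, were named after their values were seen. Some genes that this rule names are not reported here.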

Additional observations from a re-analysis of the deposited data

Results flagged for a closer look

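Of 81 groups of 4 libraries tested, 7 had 1 library far from the other 3, where chance alone gives about 1 in 20. The causes were not tested. Heterozygote replicate 1 had 16312 genes detected, against 16679 to 16732 in the other heterozygotes. Pmp22, the Schwann cell marker that was tested, was at 800.2 CPM in the same library, against 182.8 to 268.7 CPM. A830039N20Rik was also highest there, at 26.15 CPM against 23.09 to 23.44 CPM. Gfpt2 was at 0.01408 CPM in it through a single count, with the other heterozygotes at 0. Tardbp was at 62.32 CPM in wild type replicate 1, below the 76.08 to 78.73 CPM of the other wild type libraries. In wild type replicate 4, 5730577I03Rik was low, at 0.1307 CPM against 0.4753 to 0.512 CPM, and Aox1 was high, at 7.036 CPM against 5.728 to 5.768 CPM.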

How the results depend on the processing

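edgeR called 0 genes under each of its 18 alternatives and limma-voom called 0, while DESeq2 called 9, of which edgeR put 8 at an adjusted p of 0.999 and Gfpt2 at 0.59. Genes at an unadjusted p below 0.05 numbered 1066 in limma-voom, 1157 with a replicate block and 561 to 934 when 1 library was left out, against 670. The labels do not say what the replicate numbers mark, so the block was kept as an alternative. Deviations of same-numbered wild type and heterozygote libraries had correlations of 0.106, -0.0528, 0.0499 and 0.0688 for replicates 1 to 4. The share of the 10 most abundant genes fell with replicate number in every genotype. It was 6.43, 6.29, 5.59 and 5.57% in wild type, 7.42, 6.05, 5.49 and 5.34% in heterozygotes and 7.44, 5.87, 5.80 and 5.54% in homozygotes. What this shared trend reflects was not tested. Heterozygote and homozygote libraries had correlations of 0.454, 0.0711, 0.0745 and 0.0977, so those numbered 1 deviated together, and not every library correlated best with its own number. Genes without overlap, 529 in all, numbered 1084 without heterozygote and homozygote replicates 1 together and 536 to 1313 when 1 library was left out, since fewer libraries overlap less. Of 90 genes, 76 kept their direction under all 20 alternatives, and 7 kept it under the 18 or 19 that tested them. When 1 library was left out, Tardbp ran from -0.0832 to 0.0429, Sort1 from -0.124 to 0.0592, Chat from -0.15 to 0.92, Chodl from -0.19 to 1.07, Nefl from -0.0868 to 0.36, Nefm from -0.16 to 0.37 and Nefh from -0.0617 to 0.27 on the log2 scale. Without heterozygote and homozygote replicates 1 together, Chat was at -0.14, Chodl at -0.19, Nefl at -0.0838, Nefm at -0.16 and Nefh at -0.0585. Tardbp turned positive at 0.0251, 0.00815, 0.0216 and 0.0429 without wild type replicates 2, 3 and 4 and heterozygote replicate 4, and Sort1 at 0.0592 and 0.0267 without wild type replicate 4 and heterozygote replicate 2. Under 1 CPM no interval lay within 2-fold, and depth was not separated from the spread between libraries there.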
